A study of Mus musculus with 4 samples.

Results

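Wild-type otic vesicles of C57/BL6 mouse embryos were described here at embryonic day 11.5 from 2 RNA sequencing libraries, WT 1 and WT 2, out of 4 in the series. The other 2 libraries came from Meis2 mutant embryos of the same strain and age and were not used. Groups and numbers were taken from the sample titles. The genes described were the protein-coding genes of the deposited table whose level, averaged over WT 1 and WT 2, reached 1 TPM, which held for 13468 of 21782 coding rows. This share, 61.8%, is the background for the counts of list members at 1 TPM or more given below. TPM is an abundance per transcript length that is scaled to the same total in every library, so levels of different genes can be ranked within a library. RNA was taken from the dissected vesicles with the RNeasy Micro kit. The number of embryos behind a library (not given in the sources used here) leaves unknown whether the libraries are separate animals or pools, and the spread between WT 1 and WT 2 may be partly technical. Pairs of values below are TPM in WT 1 and then WT 2, and differences are WT 2 minus WT 1 on the scale of log2(TPM + 1). No test can be made with 1 library on each side, and none is given.

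The otic vesicle is the closed epithelial sac that forms from the otic placode and gives rise to the cochlea, the vestibular organs, the endolymphatic duct and the neurons of the vestibular and auditory ganglia. Its epithelium is patterned by signals from the hindbrain, the surrounding mesenchyme and its own cells, which set up dorsal, ventral, neurogenic and prosensory domains. These domains are known by transcription factors such as Pax2, Gata3, Hmx3 and Sox2. A dissected vesicle can also carry mesenchyme, nerve cells, vessels and blood.

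The 5 markers of otic epithelium used to check the tissue label were all present. Oc90, which encodes the chief component of otoconia (ENSMUSG00000015001.17, chromosome 15, 65876053 to 65912397, GRCm38), stood at 912 and 724 TPM and had rank 157 among the 13468 coding genes. Epcam, an epithelial adhesion molecule (chromosome 17, 87635979 to 87651129), was at 209.8 and 198 TPM. The transcription factor Sox10 (chromosome 15, 79154908 to 79165240) was at 108 and 118 TPM, Gata3 (chromosome 2, 9857078 to 9890034) at 45.4 and 46.7 TPM and Pax2 (chromosome 19, 44756045 to 44837871) at 28.9 and 35.5 TPM. Oc90 was lower and Pax2 higher in WT 2, with log2 differences of -0.33 and 0.29, and the other 3 differed by less.

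The most abundant transcripts came from housekeeping genes and globins. Of the coding genes, 9201 had a mean of at least 10 TPM, 1583 of at least 100 and 144 of at least 1000, and 3315 were listed at 0 in both libraries. The 100 highest genes took 25.6% of all TPM in WT 1 and 26.4% in WT 2, and the 1000 highest took 56.9% and 56.6%. Genes of ribosomal proteins accounted for 14.4% and 14.5%, and the 13 mitochondrially encoded genes for 4.75% and 4.40%. Eef1a1, a translation elongation factor (chromosome 9, 78478449 to 78489151), was the highest gene at 8607 and 7819 TPM. It was followed by Hbb-y, an embryonic globin, at 4715 and 10276 TPM. The mitochondrial subunit genes mt-Co3, mt-Co2 and mt-Atp6, the nuclear protein gene Ptma at 6342 and 5602 TPM and Rpl13a at 5569 and 5116 TPM came next. Ppia, which encodes cyclophilin A, was at 4262 and 4244 TPM. Of the 15 highest genes, Hbb-y and mt-Atp8, at 3826 and 5239.8 TPM, differed most between the libraries.

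The libraries agreed closely for most genes. Across the 13468 genes Pearson's r of log2(TPM + 1) was 0.989 and Spearman's rho of TPM 0.990, given as a description, since genes within a library share its preparation and are not replicates. The median difference was 0.01, with 7083 genes higher and 6385 lower in WT 2, and the median size of the difference was 0.13. Genes of 1 to 5 TPM had a median size of 0.23, and 95% of them lay within 1.79-fold in TPM + 1. For such low genes the fold in TPM itself is larger than the fold in TPM + 1. Genes of 20 to 100 TPM had a median size of 0.11, and 95% lay within 1.30-fold in TPM + 1. A log2 difference of at least 1 was reached by 110 genes higher in WT 2, which is 0.817% of the genes, and by 43 genes lower in WT 2, which is 0.319%. These shares are the background for the counts of list members given below.

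**Figure D1:**
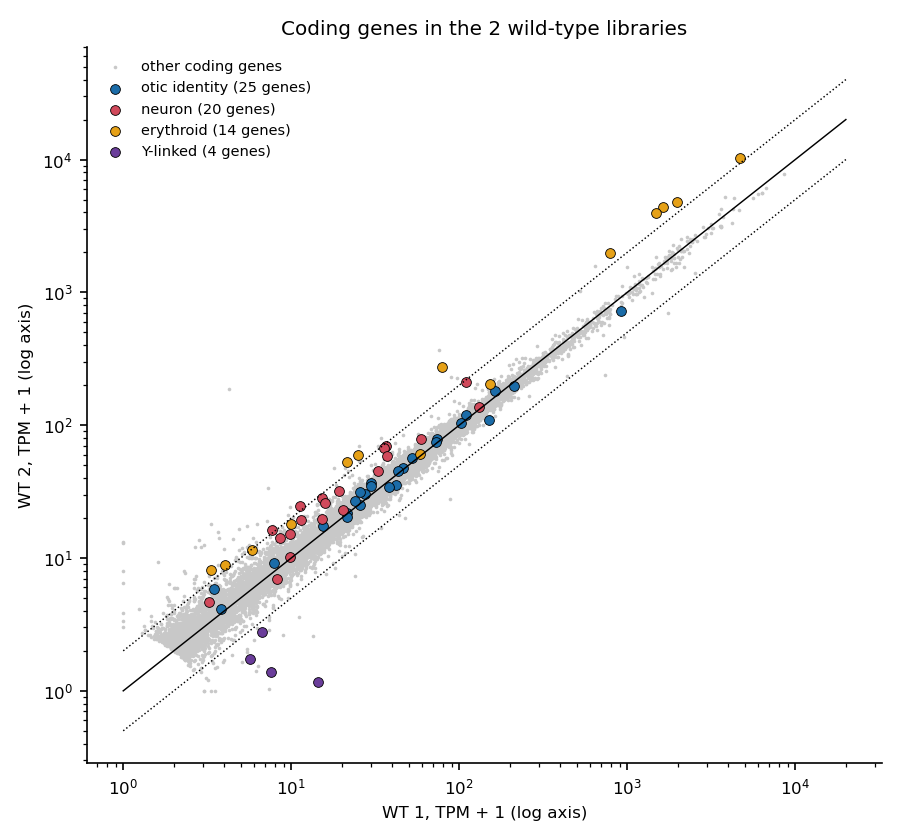
Each point is a coding gene averaging 1 TPM or more, with WT 1 on the x axis and WT 2 on the y axis as TPM + 1 on log axes; the solid line marks equal values and the dotted lines a 2-fold difference. The 25 otic identity genes lie along the line of equal values, most of the 14 erythroid and 20 neuron genes lie above it, and the 4 Y-linked genes lie below it.

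Levels were next set beside the promoter sequence. RefSeq windows from 250 bases before to 50 bases after a start site (build GRCm38.p6) matched 16451 of 21767 coding symbols, and the window nearest the start of the GENCODE gene was taken. The window was searched for the dinucleotide CG, which reads the same on both strands, and for TATAAA on either strand, as TATAAA or TTTATA. The motifs share no base order and were counted separately. Genes under 0.1 TPM had a median of 2 CG per window of 300 bases, and genes of 0.1 to 1 TPM had 6. The median was 16 at 1 to 10 TPM, 22 at 10 to 100, 23 at 100 to 1000 and 22 at 1000 TPM or more. The median thus was higher at each step up to 10 TPM and about the same in the 3 groups above it. TATAAA occurred in 12.8% of all windows, in 28.3% of those under 0.1 TPM, in 5.57% of those of 10 to 100 TPM and in 12.0% of the 100 windows at 1000 TPM or more.

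**Figure D2:**
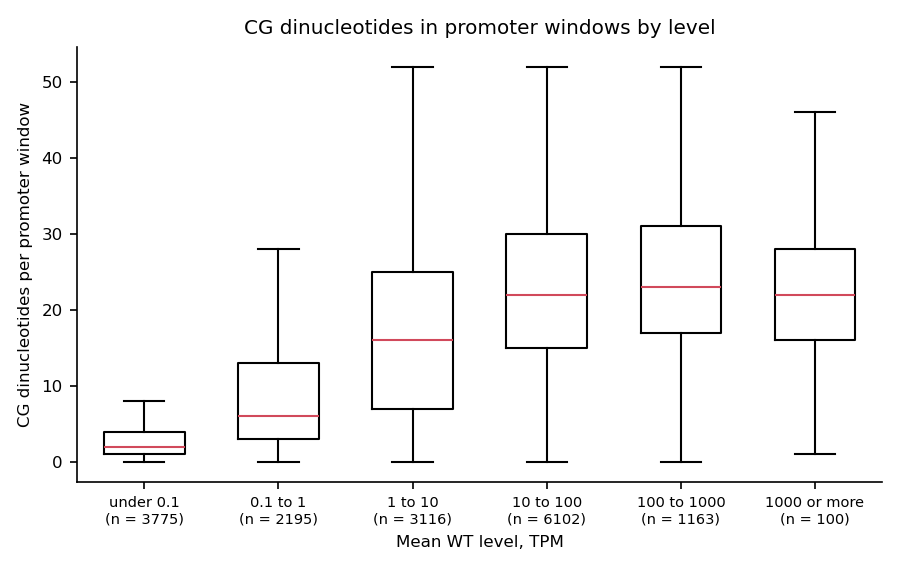
Boxes show CG dinucleotides per promoter window of 300 bases (median, quartiles and whiskers to the farthest value within 1.5 box heights) for coding genes grouped by mean wild-type TPM. The median is 2 below 0.1 TPM and between 22 and 23 in the 3 highest groups.

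Lists of genes averaging 1 TPM or more differed in the same feature. Regulator genes had a median of 25 CG over 206 windows, proliferation genes 24 over 17 and neuron genes 23 over 15. Erythroid genes had 4 over 11 windows, macrophage genes 3.5 over 8, cartilage genes 4.5 over 8 and genes of the otoconial and tectorial matrix 2 over 4. The 5 windows below are shown because they span this range, with CG and TATAAA (either strand) in capitals. They are Otol1, a matrix gene, Hbb-y and Hba-x, embryonic globins, Epcam, the epithelial marker, and Neurod1, a transcription factor of neuronal precursors. In order, they are chr3:70007363-70007662 (plus strand), chr7:103853158-103853457 (minus), chr11:32276350-32276649 (plus), chr17:87635729-87636028 (plus) and chr2:79456587-79456886 (minus).
Otol1: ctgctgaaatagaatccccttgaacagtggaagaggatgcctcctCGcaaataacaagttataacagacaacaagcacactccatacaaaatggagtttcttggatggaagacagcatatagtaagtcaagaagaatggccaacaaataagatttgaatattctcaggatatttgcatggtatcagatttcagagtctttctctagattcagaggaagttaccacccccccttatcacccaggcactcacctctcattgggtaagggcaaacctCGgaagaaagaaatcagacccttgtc
Hbb-y: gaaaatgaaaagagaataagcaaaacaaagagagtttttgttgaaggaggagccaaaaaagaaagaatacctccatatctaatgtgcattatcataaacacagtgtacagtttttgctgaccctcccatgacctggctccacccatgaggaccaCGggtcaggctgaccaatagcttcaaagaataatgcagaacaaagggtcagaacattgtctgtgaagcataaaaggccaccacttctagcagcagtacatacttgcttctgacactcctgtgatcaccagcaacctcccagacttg
Hba-x: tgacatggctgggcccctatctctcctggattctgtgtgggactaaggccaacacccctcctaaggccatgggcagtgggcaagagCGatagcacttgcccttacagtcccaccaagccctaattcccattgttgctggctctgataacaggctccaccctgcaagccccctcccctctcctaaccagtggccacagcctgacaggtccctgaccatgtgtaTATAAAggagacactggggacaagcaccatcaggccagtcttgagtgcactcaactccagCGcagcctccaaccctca
Epcam: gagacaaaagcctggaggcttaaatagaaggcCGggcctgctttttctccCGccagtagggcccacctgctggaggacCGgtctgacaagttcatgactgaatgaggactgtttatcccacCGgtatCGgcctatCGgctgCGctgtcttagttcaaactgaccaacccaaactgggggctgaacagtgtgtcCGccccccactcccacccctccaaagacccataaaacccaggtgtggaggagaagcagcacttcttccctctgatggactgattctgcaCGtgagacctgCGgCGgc
Neurod1: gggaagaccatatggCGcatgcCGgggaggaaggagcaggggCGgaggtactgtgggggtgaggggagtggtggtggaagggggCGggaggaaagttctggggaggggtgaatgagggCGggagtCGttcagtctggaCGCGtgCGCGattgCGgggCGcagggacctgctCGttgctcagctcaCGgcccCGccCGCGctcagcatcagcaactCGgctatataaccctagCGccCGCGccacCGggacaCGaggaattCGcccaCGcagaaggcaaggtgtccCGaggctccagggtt
Otol1 and Hba-x each had 2 CG, Hbb-y 1, Epcam 11 and Neurod1 26. Of these 5, only Hba-x held TATAAA. The globin genes thus had fewer CG than Neurod1, at 35.7 and 68.1 TPM. A match describes the letters of the window and not a site in use.

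Transcriptional regulators were ranked over a list of 436 genes of 39 families, of which 287 had a mean of at least 1 TPM, 194 of at least 10 and 19 of at least 100. Together the 436 genes took 1.00% of all TPM in WT 1 and 1.007% in WT 2. The highest was Tead2, a TEA domain factor that works with the Hippo coactivators Yap and Taz (chromosome 7, 45215753 to 45233644), at 438 and 512 TPM. It was followed by Id2 at 405 and 315 TPM and Id3 at 308 and 319 TPM, which encode inhibitors of bHLH factors, and by Tcf3, the E protein that those factors pair with, at 254 and 276 TPM. The orphan nuclear receptor Nr2f1 was at 232 and 275 TPM and the TALE homeobox gene Pbx2 at 161 and 194 TPM. Of the genes of the otic placode, Sox10 had rank 17 and Eya1, a transcriptional coactivator, rank 19 at 101 and 102 TPM. Twist1, a mesenchymal bHLH gene, had rank 12 at 157 and 126 TPM.

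**Figure D3:**
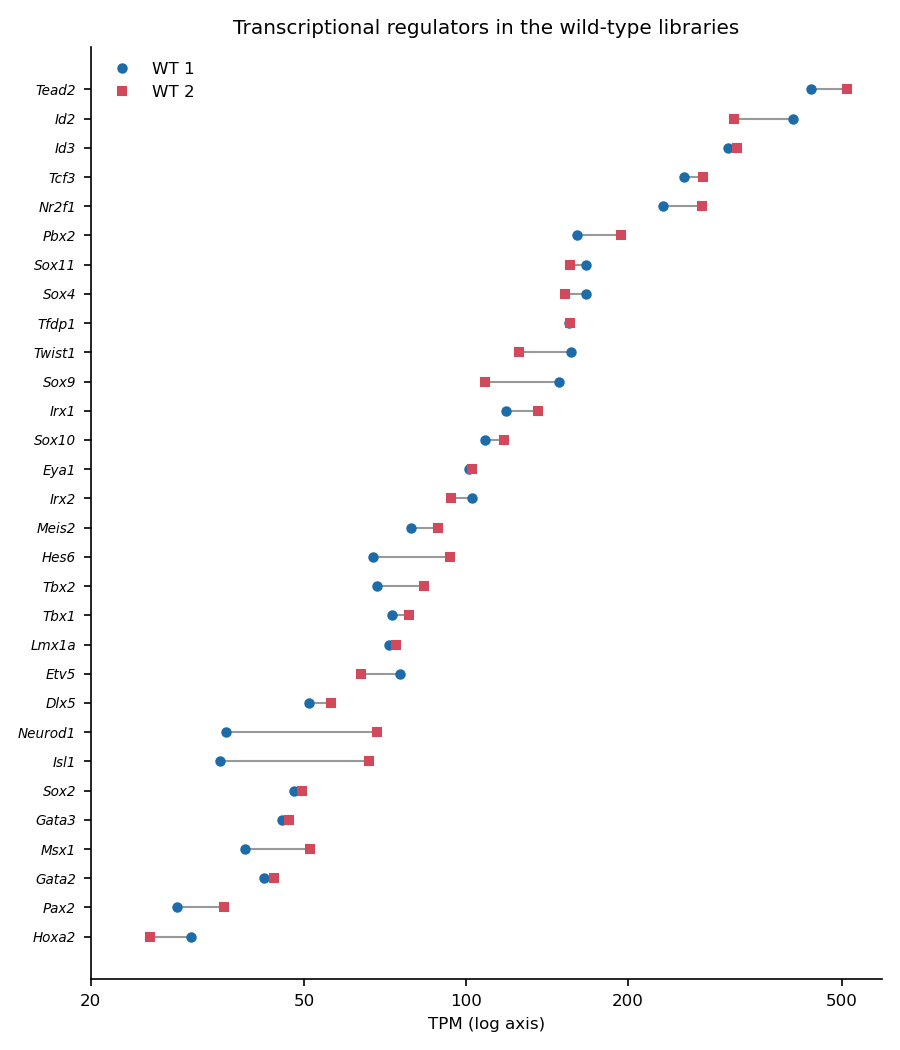
TPM of 30 regulators named in the text, ordered by mean, on a log axis, with WT 1 as circles and WT 2 as squares. Tead2 stands highest at 438 and 512 TPM and does not overlap with Id2, at 405 and 315 TPM.

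The spread between the libraries set how far this order can be read. Tead2 lay above Id2 without overlap. Neighbours overlapped in the case of Sox11, Sox4 and Tfdp1, with Sox11 at 167 and 156 TPM, Sox4 at 167 and 153 TPM and Tfdp1 at 156 and 156 TPM. Among the 287 regulators, 5 were past a difference of 1 in the direction of WT 2, against 0.817% of all genes, and 0 in the other, against 0.319%. Those 5, named after their values were seen, were the erythroid factors Gata1 (2.32 and 7.13 TPM) and Klf1 (3.03 and 7.87 TPM), and Onecut1 (1.71 and 6.31 TPM), Nhlh1 (6.698 and 15.3 TPM) and Nr4a2 (4.64 and 11.5 TPM). The median size of the difference among regulators was 0.18.

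The leading member of each gene family was compared between the libraries. The 76 families included regulators, ligands, receptors, collagens, laminins, integrins, cadherins, claudins, keratins and connexins. The leading member was the same in both libraries in 68 of them, and in 65 of these 68 its lower value exceeded the higher value of the next member. In 18 families the leader held more than 50% of the summed TPM in both libraries. Grhl2, an epithelial factor, held 94.9% of the Grhl family in WT 1 and 93.8% in WT 2. Tead2 held 87.5% and 88.9% of its family, Pax2 78.0% and 77.2%, and Hoxa2 76.4% and 72.9% of all Hox transcripts. Sall2 held 64.7% and 65.4% of the Sall family. By contrast Sox11 held 20.8% and 20.7% of the Sox family, where Sox4, Sox9 and Sox10 were also above 100 TPM. The leader differed between the libraries in 8 families, among them Msx1 and Msx2 (38.7 and 51.1 TPM and 44.2 and 38.7 TPM), Tbx1 and Tbx2 (72.7 and 78.3 TPM and 68.2 and 83.4 TPM), and Id2 and Id3.

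Otic identity genes formed a list of 27, of which 25 had a mean of at least 1 TPM. Besides the genes above it held Sox9 at 149 and 108 TPM, Tbx1, which restricts neurogenesis in the vesicle, at 72.7 and 78.3 TPM, and the LIM homeobox gene Lmx1a at 71.8 and 73.9 TPM. Gata2 was nearly as high as its paralogue Gata3, at 42.00 and 43.9 TPM. Six4 was at 24.8 and 24.1 TPM and Eya4, a paralogue of Eya1, at 26.6 and 29.2 TPM. Other placode genes were low. Pax8 was at 2.48 and 4.84 TPM, Foxi3 at 0.102 and 0.261 TPM and Tfap2a at 2.83 and 3.14 TPM. Pax8 thus stood far below Pax2 in both libraries, with a ratio of the means of 8.79. None of the 25 genes was past a difference of 1, 18 were higher and 7 lower in WT 2, and the median was 0.10, beside 0.01 for all genes.

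Dorsal genes, which pattern the vestibular organs, were present in 15 of 17 cases at 1 TPM or more. Dlx5 (chromosome 6, 6877805 to 6882085) was at 51.05 and 55.96 TPM and its neighbour Dlx6 at 37.1 and 32.99 TPM. Msx1 and Msx2, which respond to BMP signals, lay at a like level. The homeobox genes Gbx2, at 28.7 and 34.1 TPM, Hmx3, at 22.9 and 25.8 TPM, and Hmx2, at 20.5 and 20.8 TPM, lay lower. Lrig3, a regulator of canal shape, was at 26.5 and 23.9 TPM, and Dlx3 at 5.48 and 4.61 TPM. Bmp2 at 1.67 and 1.19 TPM was far below Bmp4, its relative in sensory domains of the vesicle, at 44.00 and 43.4 TPM.

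Ventral genes, which pattern the cochlea, were present at 1 TPM or more in all 19 cases. Sox2, which marks neurosensory precursors (chromosome 3, 34650405 to 34652461), was at 47.9 and 49.5 TPM. The homeobox genes Otx2, at 22.2 and 24.98 TPM, Otx1, at 18.6 and 21.4 TPM, and Emx2, at 19.2 and 16.4 TPM, were of like size, and their values in WT 1 and WT 2 were close. Isl1, a LIM homeobox gene of neurosensory cells, was at 34.8 and 65.8 TPM and Lfng, a modifier of Notch, at 38.9 and 61.6 TPM. These 2 genes and Insm1, at 9.23 and 19.3 TPM, were each higher in WT 2. For Prox1, a factor of the sensory epithelium, the values were 2.09 and 2.51 TPM. The median difference of the list was 0.18, and none was past 1.

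Endolymphatic duct genes had few members present, with 3 of 9 at 1 TPM or more. Foxi1, the master regulator of the ion-transporting cells of the duct (chromosome 11, 34204338 to 34208089), was at 0.971 and 0.373 TPM. Slc26a4, its target that encodes the anion exchanger pendrin (chromosome 12, 31519827 to 31559969), was at 0.221 and 0.0568 TPM. The proton pump subunit genes Atp6v0a4 and Atp6v1b1 were at 0.0818 and 0.268 TPM and 0.111 and 0.195 TPM. The members above 1 TPM included Wnk1, a broadly expressed kinase, at 126 and 111 TPM and Wnt2b at 12.6 and 14.04 TPM.

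Regulators of hair cells were at or near 0. Atoh1, the gene that starts hair cell fate (chromosome 6, 64729125 to 64731245), stood in WT 1 at 0.0763 TPM and was listed at 0 in WT 2. Pou4f3 was at 0.390 and 0.227 TPM and Gfi1 at 0.0813 and 0.154 TPM. Genes that act earlier in the prosensory domain were present, with Jag1 at 28.5 and 37.7 TPM, Hey1 at 45.5 and 45.5 TPM, Hey2 at 14.5 and 10.6 TPM and Cdkn1b, the inhibitor of cell division that marks cells leaving the cycle, at 63.9 and 53.7 TPM. Among genes of mature hair cells, Myo7a was at 18.3 and 22.5 TPM and Myo6 at 11.8 and 13.6 TPM, while the channel gene Tmc1 was at 0.127 and 0.112 TPM. In all, 11 of 18 list members were at 1 TPM or more, which is near the 61.8% of all coding rows.

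Genes of otic neurogenesis were present in 14 of 17 cases and were the territory list with the largest median difference, 0.78. Neurog1, which specifies otic neuroblasts (chromosome 13, 56250478 to 56252163), was at 4.76 and 8.92 TPM. Its target Neurod1 (chromosome 2, 79452521 to 79456751) was at 35.7 and 68.1 TPM and Pou4f1, a factor of differentiating sensory neurons, at 14.2 and 27.4 TPM. All 3 were higher in WT 2. Eya2 was at 24.98 and 35.98 TPM, Nhlh2 at 10.4 and 18.4 TPM and Dll1, the Notch ligand of delaminating neuroblasts, at 5.33 and 7.97 TPM. Ebf1, Ebf2 and Ebf3, which are also made in mesenchyme, were at 36.5 and 32.99 TPM, 28.4 and 30.9 TPM and 47.6 and 50.5 TPM. Of these Ebf1 was lower in WT 2. In total 13 of 14 genes were higher in WT 2, and 1, Nhlh1, was past a difference of 1.

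Most Hox genes were under 1 TPM. Of 39 Hox genes, 4 had a mean of at least 1 TPM. They were Hoxa2 (chromosome 6, 52162417 to 52164831) at 30.8 and 25.8 TPM, Hoxb2 at 3.76 and 3.81 TPM, Hoxb3 at 1.83 and 2.37 TPM and Hoxa3 at 1.35 and 1.498 TPM, all of paralogue groups of the hindbrain and pharyngeal arches. Among those under 1 TPM, Hoxb1 was at 0.448 and 0.403 TPM and Hoxb4 at 0.208 and 0.215 TPM. The endoderm factors Foxa1 and Foxa2 were at 0.0167 and 0.0356 TPM and 0.0270 and 0 TPM, and Nkx2-2, Nkx2-5 and Foxb1 were listed at 0 in both libraries. Meis2, the gene changed in the mutants of this series, was at 78.98 and 88.7 TPM and had rank 24 among regulators. The Iroquois genes Irx1, at 119 and 136 TPM, and Irx2, at 103 and 93.6 TPM, were among the 20 highest.

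Signalling genes were arranged by pathway, with ligands before receptors. Fibroblast growth factors induce the placode and later drive its growth. Of 22 FGF genes 12 were at 1 TPM or more, beside 61.8% of all coding rows. Fgf9, a ligand of the vesicle epithelium (chromosome 14, 58070547 to 58112720), was at 23.7 and 20.9 TPM and Fgf10 (chromosome 13, 118669791 to 118792115) at 12.2 and 15.1 TPM. Fgf13, whose product stays inside cells, was at 23.2 and 14.97 TPM, Fgf18 at 6.003 and 7.06 TPM and Fgf20, a signal of the prosensory domain, at 4.28 and 4.48 TPM. Fgf3 was at 2.77 and 3.62 TPM and Fgf8 at 2.82 and 2.900 TPM. Of the receptors, Fgfr1 was at 80.04 and 73.2 TPM and Fgfr2, a receptor for Fgf3 and Fgf10 in its epithelial form, at 68.5 and 66.5 TPM, while Fgfr3 was at 4.27 and 4.93 TPM and Fgfr4 at 1.11 and 1.36 TPM. Fgfr1 and Fgfr2 thus lay above Fgfr3 and Fgfr4 without overlap. The response genes Etv5 and Etv4 were at 75.4 and 63.8 TPM and 52.9 and 40.8 TPM, and Spry2 and Spry1, which limit the signal, at 40.96 and 34.2 TPM and 20.4 and 19.5 TPM.

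Of 23 BMP and GDF ligand genes 13 were at 1 TPM or more. Of 10 TGF-beta and activin ligand genes 4 were, beside 61.8% of all coding rows. Bmp1, a protease that processes collagen and not a true BMP, was at 56.8 and 57.9 TPM. Bmp4 (chromosome 14, 46383520 to 46390669) was at 44.00 and 43.4 TPM, Bmp7 at 31.5 and 33.6 TPM and Gdf11 at 26.8 and 30.1 TPM. Gdf10 was at 20.98 and 11.2 TPM, lower in WT 2. Of the TGF-beta genes Tgfb2 was highest at 27.5 and 24.8 TPM, with Tgfb3 at 10.2 and 10.04 TPM and Tgfb1 at 8.42 and 11.8 TPM. The activin subunit genes Inhba and Inhbb were at 0.230 and 0.173 TPM and 0.0368 and 0.0133 TPM. Secreted antagonists covered a wide range. Fstl1 was at 202 and 155 TPM and Twsg1 at 80.4 and 73.7 TPM, while Fst was at 14.8 and 14.2 TPM, Bmper at 14.9 and 12.6 TPM, Chrdl1 at 9.26 and 10.6 TPM, Nog at 2.197 and 2.16 TPM and Grem1 at 1.61 and 1.85 TPM. Among receptors, Tgfbr1 at 81.8 and 81.2 TPM and Bmpr1a at 72.6 and 61.7 TPM led, with Acvr2b at 30.3 and 38.8 TPM, Acvr2a at 26.04 and 26.2 TPM and Acvr1 at 25.1 and 21.6 TPM. Smad4, the shared signal transducer, was at 83.8 and 87.5 TPM.

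Of 19 Wnt genes 9 were at 1 TPM or more. Wnt5a, a ligand of the planar polarity pathway (chromosome 14, 28504750 to 28527448), was at 60.1 and 45.9 TPM and Wnt7b at 33.03 and 33.8 TPM. Wnt2b, made in the dorsal vesicle (chromosome 3, 104945272 to 104961921), was at 12.6 and 14.04 TPM, Wnt6 at 8.099 and 12.9 TPM and Wnt5b at 9.79 and 9.12 TPM. The hindbrain ligands Wnt1 and Wnt3a were at 0.134 and 0.0750 TPM and 0.485 and 0.291 TPM. The secreted inhibitor gene Sfrp1 was higher than any Wnt gene, at 126 and 126 TPM. Frzb was at 43.5 and 27.2 TPM and Sfrp2 at 36.5 and 33.9 TPM, and the agonist Rspo3 was at 18.9 and 18.7 TPM. The receptor genes Fzd7, Ryk and Fzd2 were at 105 and 102 TPM, 86.8 and 73.6 TPM and 79.1 and 80.6 TPM, and the coreceptor genes Lrp5 and Lrp6 at 46.7 and 50.3 TPM and 45.8 and 42.6 TPM. Among the nuclear effectors Tcf7l1, a repressor in the absence of the signal, was at 45.7 and 47.98 TPM and Lef1 at 37.7 and 28.7 TPM.

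The Notch ligand Jag1 (chromosome 2, 137081456 to 137116644) led its family in both libraries, with Jag2 at 7.89 and 6.65 TPM, Dll4, a ligand of vessels, at 3.27 and 2.89 TPM and Dll3 at 0.600 and 1.98 TPM. All 4 receptor genes were present, with Notch3 at 47.8 and 49.1 TPM, Notch1 at 29.98 and 41.3 TPM, Notch2 at 17.1 and 16.97 TPM and Notch4 at 12.8 and 7.36 TPM. The effector genes Hes1 and Hey1 were at 40.04 and 40.6 TPM and 45.5 and 45.5 TPM, while Hes5 was at 0.476 and 0.251 TPM. Hes6, which is made in neuronal precursors, was highest in its family at 67.02 and 93.2 TPM. In the hedgehog pathway no ligand reached 1 TPM. Sonic hedgehog, Shh (chromosome 5, 28456815 to 28467256), was at 0.0189 and 0.0452 TPM, Ihh at 0.0434 and 0.118 TPM and Dhh at 0.349 and 0.567 TPM. Receptor and response genes were present all the same. Gas1, a coreceptor, was at 167 and 145 TPM, Smo at 92.6 and 97.7 TPM, and Ptch1 and Gli1, both targets of the pathway, at 19.9 and 21.7 TPM and 17.4 and 22.7 TPM.

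Retinoic acid is made by Aldh1a enzymes and broken down by Cyp26 enzymes. A pair of degrading enzymes was highest in this group. Cyp26c1 and its neighbour Cyp26a1 (chromosome 19, 37697798 to 37701536) were at 125 and 142 TPM and 128 and 111 TPM, and Cyp26b1 was at 3.78 and 4.57 TPM. The synthesizing enzyme genes Aldh1a3, Aldh1a1 and Aldh1a2 were at 19.9 and 9.94 TPM, 9.73 and 10.9 TPM and 8.56 and 9.24 TPM. Cyp26c1 and Cyp26a1 did not overlap with any of the 3 synthesizing genes and overlapped with each other. Rdh10, which makes the retinal precursor, was at 41.4 and 32.7 TPM. Of the receptors Rarg was at 58.4 and 45.9 TPM, Rara at 26.2 and 27.9 TPM and Rarb at 7.74 and 5.503 TPM.

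**Figure D4:**
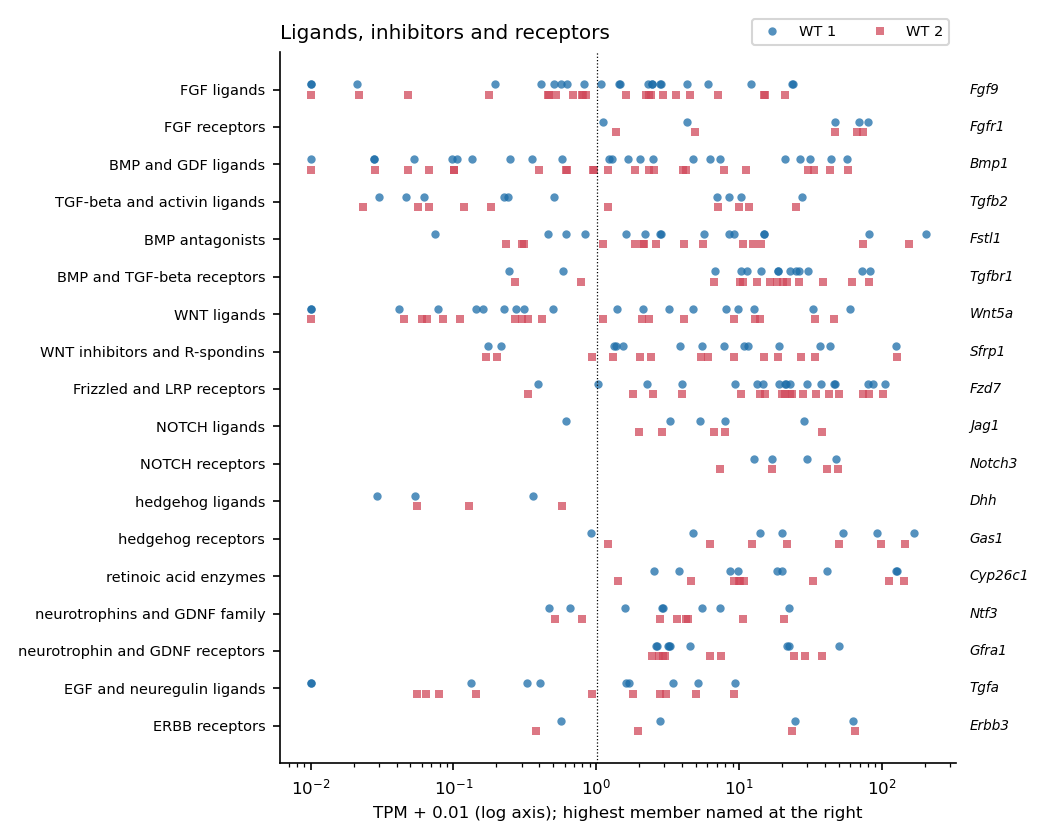
TPM + 0.01 of every member of 18 signalling lists on a log axis, WT 1 as circles and WT 2 as squares, with the highest member of each list named and a dotted line at 1 TPM. All hedgehog ligands lie left of the line, with Dhh highest at 0.349 and 0.567 TPM, while hedgehog receptors reach 167 and 145 TPM.

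Among the listed ligand genes Mdk, Igf2 and Ptn were highest. Mdk, which encodes the heparin-binding factor midkine (chromosome 2, 91929805 to 91932297), was at 2817 and 3110.4 TPM and had rank 27 among coding genes. Its relative Ptn was at 544 and 474 TPM. Igf2 was at 667 and 647 TPM, against Igf1 at 49.8 and 38.7 TPM, and the binding protein genes Igfbp4 and Igfbp2 were at 398 and 369.9 TPM and 223 and 159 TPM. The chemokine gene Cxcl12 was at 63.01 and 70.2 TPM and its receptor Cxcr4 at 15.7 and 17.6 TPM. Vegfa was at 52.3 and 51.5 TPM and Pdgfc at 54.5 and 40.2 TPM. Of the neurotrophins that sustain otic neurons, Ntf3 was at 22.3 and 20.7 TPM and Bdnf at 7.38 and 10.6 TPM, so that Ntf3 was higher in both libraries. Their receptors Ntrk3 and Ntrk2 were at 3.16 and 3.02 TPM and 21.6 and 24.00 TPM. Gfra1, a coreceptor for Gdnf, led this receptor group at 49.6 and 37.9 TPM. Erbb3, a neuregulin receptor, was at 62.6 and 64.8 TPM and Nrg1 at 5.12 and 4.99 TPM. Of the guidance ligands, 20 of 20 semaphorins, 8 of 8 ephrins and 7 of 7 matched slits and netrins were at 1 TPM or more. Of their receptors, 11 of 14 Eph genes, 10 of 11 plexins and neuropilins and 6 of 10 genes of the Robo, Dcc and Unc5 list were, beside 61.8% of all coding rows. Semaphorins and ephrins were led by Sema4c at 48.8 and 58.6 TPM and Efnb2 at 68.98 and 63.9 TPM. The receptor genes Ephb4, Plxnb2 and Neo1 were at 82.95 and 79.5 TPM, 100.4 and 93.8 TPM and 54.2 and 54.00 TPM.

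The otoconial matrix genes Oc90 and Otol1 were present, while Tecta, Tectb and Ceacam16 of the tectorial membrane were low. Beside Oc90, the otoconial scaffold gene Otol1 (chromosome 3, 70007613 to 70028708) was at 35.5 and 27.9 TPM. Otog and Otogl, which encode glycoproteins of acellular membranes, were at 9.86 and 7.43 TPM and 4.98 and 3.76 TPM. Tecta was at 0.446 and 0.675 TPM, and Tectb and Ceacam16, further genes of the tectorial membrane, were listed at 0 in both libraries. Otop1, another member of this list, was at 0.228 and 0.160 TPM. Of the list 7 of 11 were at 1 TPM or more, all below a difference of 1, with a median of -0.33.

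Basement membrane genes other than laminins had a median difference near 0 between the libraries. Col18a1 was at 174 and 173 TPM, Agrn at 149.99 and 154 TPM, Col4a1 at 129.7 and 122 TPM, Col4a2 at 85.6 and 87.4 TPM and Hspg2, which encodes perlecan, at 70.4 and 81.4 TPM. Laminin chains followed the order Lamb1 at 36.6 and 44.5 TPM, Lamb2 at 30.7 and 34.5 TPM, Lamc1 at 27.1 and 34.3 TPM and Lama5 at 15.4 and 21.6 TPM, in which Lamb2 and Lamc1 overlapped. Lamb3 was at 1.33 and 6.72 TPM, the 1 laminin past a difference of 1, and 9 of 10 laminins at 1 TPM or more were higher in WT 2. Col2a1, the collagen of cartilage that is also laid down around embryonic epithelia (chromosome 15, 97975602 to 98004695), was the highest collagen at 562 and 578 TPM. Its partners Col9a2 and Col9a1 were at 134 and 120.3 TPM and 132 and 111 TPM. Further genes of the cartilage list differed widely in level. Cnmd was at 97.1 and 88.9 TPM, Hapln1 at 10.1 and 9.27 TPM and Matn1 at 1.99 and 2.42 TPM. Acan, a marker of formed cartilage, was at 0.246 and 0.135 TPM. Col3a1 was at 327 and 280.4 TPM and Col26a1 at 175 and 156 TPM. Other abundant matrix genes were Sparc at 329 and 256 TPM, Fn1 at 219 and 231 TPM, Gpc3 at 294 and 225 TPM, Vcan at 104 and 107 TPM and Fbln1 at 137 and 131 TPM. The hyaluronan synthase gene Has2, which acts in canal formation, was at 14.1 and 9.89 TPM. Itgb1 was the highest integrin at 195 and 153 TPM, followed by Itga6, an epithelial laminin receptor, at 94.9 and 92.4 TPM, and Itga8 was at 3.88 and 3.93 TPM.

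Of the claudins 12 of 16 were at 1 TPM or more, and of the simple keratins 4 of 5, with median differences of 0.12 and 0.01. Cldn6, a claudin of embryonic epithelia (chromosome 17, 23679249 to 23682446), was at 246 and 250.02 TPM, Cldn7 at 107 and 121 TPM and Cldn4 at 70.9 and 70.00 TPM. Cldn5, a claudin of vessels, at 17.9 and 26.2 TPM, and Cldn11, at 6.91 and 4.49 TPM, differed more, and none of the 12 was past 1. Krt18 and Krt8, the paired keratins of simple epithelia, were at 132 and 134 TPM and 126 and 124 TPM. Among cadherins, Cdh11, which mesenchyme makes, was highest at 115 and 103 TPM. Cdh2 was at 90.4 and 90.6 TPM, Cdh3 at 61.2 and 58.6 TPM and Cdh1 at 25.4 and 25.3 TPM. Gja1 was the highest connexin at 144 and 132 TPM, while Gjb2 and Gjb6, the connexins mutated in hereditary deafness, were at 7.66 and 6.89 TPM and 1.64 and 0.451 TPM. In a list of 52 deafness genes, 35 were at 1 TPM or more, beside 61.8% of all coding rows. Those under 1 TPM included genes of mature hair cells, with Otof at 0.0362 and 0.0807 TPM and Cdh23 at 0.104 and 0.0309 TPM. Loxhd1 and Ptprq were listed at 0. Myo7a and Myo6 of the same list, given above among such genes, were above 1 TPM. So were Espn at 25.1 and 37.0 TPM, Ush1c at 10.6 and 12.1 TPM and Whrn at 8.50 and 10.4 TPM.

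Proliferation genes were at 1 TPM or more in 22 of 22 cases. Cdk4 was at 1525 and 1622 TPM, Top2a at 442 and 399 TPM, Pcna at 414 and 359 TPM and Ccnd1 at 353 and 353 TPM. Cdkn1c, an inhibitor of cell division, was at 572 and 611 TPM. The median difference of this list was -0.05, and none of its members was past 1. Immediate early genes, which can rise during dissection, were led by Ier2 at 101 and 105 TPM and Jun at 23.1 and 25.1 TPM, with Fos at 0.869 and 1.81 TPM and Egr1 at 1.604 and 1.53 TPM.

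Markers other than those of otic epithelium were grouped in 13 lists, of which the Y-linked list marks no tissue. Each list held genes at 1 TPM or more, at levels that differed widely. Less RNA per cell and fewer cells of a type cannot be told apart in such libraries. The summed level of 21 mesenchyme markers was 1175 TPM in WT 1 and 986 TPM in WT 2. Besides Col3a1 and Twist1 it came mainly from Col1a2 at 147 and 109 TPM, Prrx1 at 125 and 96.8 TPM and Prrx2 at 93.6 and 109 TPM. Pou3f4, a factor of periotic mesenchyme linked to deafness, was at 36.7 and 24.1 TPM. Of the 20 mesenchyme genes at 1 TPM or more, 18 were lower and 2 higher in WT 2, with a median of -0.36 and none past 1. Endothelial markers summed to 312 and 338 TPM, with Pecam1 at 42.2 and 54.9 TPM and Cdh5 at 29.4 and 30.1 TPM. Macrophage markers summed to 62.8 and 76.3 TPM, led by C1qb at 11.2 and 13.3 TPM. Of these 2 lists, all 14 and all 12 members were at 1 TPM or more.

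Neuron markers summed to 581 TPM in WT 1 and 889.6 TPM in WT 2. Tubb3, a tubulin of neurons (chromosome 8, 123411424 to 123422015), was at 109 and 211 TPM. Stmn2 was at 36.4 and 57.6 TPM, Elavl4 at 18.3 and 30.95 TPM and Elavl3 at 10.3 and 23.7 TPM, each lower in WT 1. Gap43 was at 130.3 and 136 TPM, and the exception was Prph, a filament of peripheral neurons, at 7.28 and 5.96 TPM. Of 20 genes 19 were higher in WT 2, with a median difference of 0.68, and 2 were past 1 (Elavl3 and Nhlh1), against 0.817% of all genes. This list shares 6 members with the otic lists, among them Isl1, Neurod1 and Pou4f1, so these lists are not independent.

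Erythroid genes were higher in WT 2 throughout. Their sum was 10933 TPM in WT 1 and 26096 TPM in WT 2. Over all coding genes, and not only this list, 8 globins were at 1 TPM or more. Globins took 1.08% of all TPM in WT 1 and 2.59% in WT 2. Hbb-y (chromosome 7, 103851749 to 103853216) and the embryonic globins Hba-x, at 1624 and 4417 TPM, and Hbb-bh1, at 1480.01 and 3927 TPM, were the highest with Hba-a2, at 1971 and 4799.6 TPM. Alas2, the first enzyme of heme synthesis in red cells, was at 20.6 and 51.9 TPM and Slc4a1, their anion exchanger, at 23.99 and 58.7 TPM. All 14 genes were higher in WT 2, with a median of 1.27, and 10 were past 1, against 0.817% of all genes. The adult globin gene Hbb-bs and the transferrin receptor gene Tfrc were among the members below 1. Hba-a1 and Hba-a2 are nearly identical, so the division of reads between them is uncertain.

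Y-linked genes lay the other way. Eif2s3y was at 13.4 and 0.174 TPM, Ddx3y at 6.58 and 0.380 TPM, Kdm5d at 4.69 and 0.730 TPM and Uty at 5.67 and 1.76 TPM. All 4 genes at 1 TPM or more were past 1 in the direction of WT 1, against 0.319% of all genes. Whether this, or the red cell and neuron levels, bears on other differences between the libraries was not tested.

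In other lists, several defining members were near 0, while others reached 1 TPM. Members at 1 TPM or more were 4 of 13 for skeletal muscle, 6 of 12 for epidermis and 4 of 10 for pharyngeal endoderm. They were 10 of 18 for hindbrain and 5 of 8 for smooth muscle, beside 61.8% of all coding rows. For skeletal muscle, Mylpf was at 13.7 and 17.9 TPM, while Myog was at 0.386 and 0.579 TPM and Myf5 was listed at 0. For epidermis, Krt10 was at 18.97 and 15.4 TPM, Perp at 12.9 and 6.84 TPM and Cldn1 at 5.75 and 6.57 TPM. By contrast Krt5, Krt14 and Trp63 were at 0.149 and 0.0544 TPM, 0.0563 and 0.114 TPM and 0.0439 and 0.221 TPM. For pharyngeal endoderm, Foxa2 and Nkx2-1 were at 0.0270 and 0 TPM and 0.0239 and 0.0271 TPM, and the high members Cldn6 and Sox2 are not particular to it. Hindbrain markers summed to 238 and 184 TPM, mainly from Zic1 at 106 and 77.2 TPM and Zic2 at 62.8 and 44.1 TPM. Hoxa2, described above, is also in this list. Olig2 was at 0.0429 and 0.0233 TPM, Pax6 at 0.587 and 0.566 TPM and Ptf1a was listed at 0. Of the neural crest and glia list, 12 of 14 were at 1 TPM or more, led by Sox10 and Erbb3, of which Sox10 is also a marker of otic epithelium. Foxd3 was at 1.31 and 1.18 TPM and Dct, a pigment cell gene, at 22.8 and 9.696 TPM. Smooth muscle genes included Tagln at 13.7 and 15.5 TPM and Acta2 at 10.99 and 9.99 TPM, while Myh11 was at 0.133 and 0.102 TPM. For cartilage, 10 of 14 were at 1 TPM or more. This list summed to 1109 TPM in WT 1 and 1086 TPM in WT 2, led by Col2a1.

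**Figure D5:**
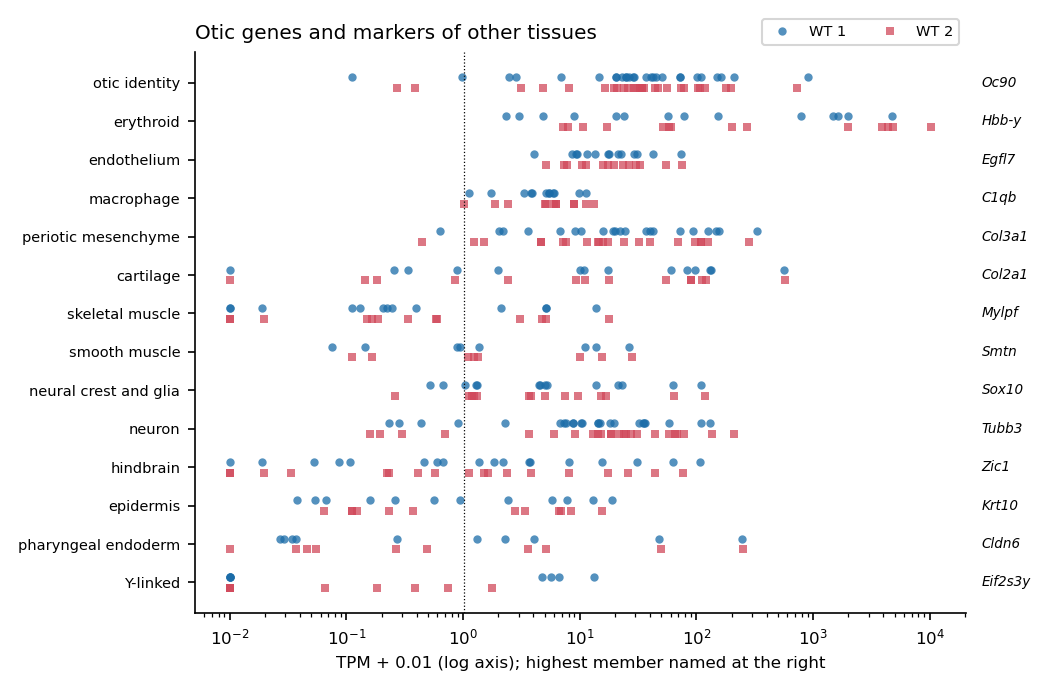
TPM + 0.01 of the otic identity genes, of each list of other tissues and of the Y-linked list on a log axis. WT 1 is shown as circles and WT 2 as squares, with the highest member named and a dotted line at 1 TPM. Erythroid squares lie to the right of the circles and Y-linked squares to the left, while endothelial and macrophage values overlap.

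Among coding genes of at least 5 TPM, predicted genes (Gm and Rik names) were counted but not named. Of those past a difference of 1, they were 17 of 62 higher in WT 2 and 4 of 14 lower. The other genes that differed most between the libraries, 6 in each direction, fell into 2 kinds. One kind had near-identical copies, counted here as rows with a transcript of at least 95% identity over at least 50% of the gene's coding sequence. Rpl3, a ribosomal protein gene, was at 738 and 239 TPM, a difference of -1.62. Summed with its 7 copies, all pseudogenes, it was at 1948 and 1935 TPM, a difference of -0.01. Rps27 was at 74.8 and 368 TPM, a difference of 2.28, which became -0.03 when summed with 4 copies. The histone genes Hist1h2ah and Hist1h2ai were at 3.24 and 186 TPM and 6.304 and 32.8 TPM. Together with the other members of their set of 14 they stood at 729 and 979 TPM, a difference of 0.43. Hmgb1, a chromatin protein gene, was at 1757 and 693 TPM, and its difference of -1.34 was -0.64 with 41 pseudogenes added. For Hbb-bt, at 78.5 and 271 TPM, a difference of 1.78 became 1.03 with its copy.

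The other kind had no such copies or kept its difference. Pklr, which encodes pyruvate kinase of liver and red cells, was at 4.43 and 16.4 TPM, and Lgi4, a secreted protein of glia, at 3.48 and 12.8 TPM. In the other direction the zinc finger gene Zfp990 was at 10.2 and 2.62 TPM, Uimc1, a DNA repair factor, at 46.7 and 18.9 TPM and Eif2s3y at the values above. Xlr3b was at 22.99 and 6.37 TPM, and its difference of -1.70 was -1.68 with 3 similar rows added. Of the 12 genes, chosen without predicted genes, 5 moved by more than the spread of all genes when copies were added. For 1 more, Rps27, the difference changed sign.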

How the data were processed

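The authors deposited 1 table of gene-level TPM, made with Salmon 0.9.1 against GRCm38 per the submitters' processing notes. The annotation release was not given in the labels. Sequencing depth cannot be recovered from TPM, so no interval for counting error is given. The 34866 gene IDs were named with GENCODE M21, which matched 34582. Coding genes averaging 1 TPM or more in the WT libraries were kept, and differences were taken on log2(TPM + 1). Python 3.11.15, pandas 2.3.3, numpy 2.4.6 and scipy 1.17.1 were used. The counting of 2-fold differences was tried on simulated data for genes of at least 5 TPM, and the other steps were not. Near-identical rows were found with blastn 2.17.0.

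Of 1121 list genes 1119 matched a coding row. The members and lists were chosen with earlier results of these data known. By rule the text names marked list members, the 5 highest of each list and the 15 highest coding genes. It also names, at 5 TPM or more and without predicted genes, the 6 largest differences in each direction. Further list members were named after their values were seen. The Meis2 mutant libraries were left out, because the wild-type level alone is described. Alternatives were another pseudocount, filter or scaling, and each library alone. Some genes of these lists are not reported here.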

Additional observations from a re-analysis of the deposited data

How the results depend on the processing

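The counts past a log2 difference of 1, 110 higher and 43 lower in WT 2, were 257 and 89 with a pseudocount of 0.1 TPM, 37 and 10 with a pseudocount of 5 TPM, and 62 and 14 among genes of at least 5 TPM. The cause was not tested, and rescaling without mitochondrial and globin genes or by the median of ratios left both counts within 1.5 times. The rescaling without mitochondrial and globin genes multiplied TPM of every gene by 1.14 in WT 1 and 1.16 in WT 2. The factor was the same for all genes of a library, so their order within it cannot change. With this rescaling, the means of 319 of 492 genes named by rule moved by more than the standard deviation of WT 1 and WT 2. Since all means rose by nearly the same factor, this count reflects how close WT 1 and WT 2 were. Summing near-identical rows was chosen after seeing the data, and with it the difference of Rps27 went from 2.28 to -0.033. No paired analysis was possible because the results come from no test and the mutant libraries that share replicate numbers with the wild-type ones were not compared. Leaving out a library of 2 leaves a single value, and the number of coding genes at 1 TPM or more in WT was then 13293 to 13520, beside 13468.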
